A study of Mus musculus with 21 samples.

Results

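Immunoglobulin V genes are the variable segments from which antibody chains are built. They were taken as every gene whose symbol starts with Ighv (heavy chain), Igkv (kappa light chain) or Iglv (lambda light chain), which gave 348 of the 51201 genes in the deposited count tables: 185 Ighv, 160 Igkv and 3 Iglv genes. RNA with a polyA tail was sequenced from spleen T cells of C57BL/6J mice at postnatal day 35, in 21 libraries. There were 6 libraries of CD4+ cells from L-gp130fl/+;CD4Cre+/- mice (L-gp130) and 6 of CD4+ cells from CD4Cre+/- mice (control), and 3 of CD8+ cells from L-gp130 mice and 6 of CD8+ cells from controls. L-gp130 is a constitutively active form of gp130, through which interleukin-6 and its relatives signal. Cre was driven by the Cd4 promoter, which is active in T lineage cells, and every mouse, controls included, carried it. CD4+ cells were bound to beads and kept, whereas CD8+ cells were what remained after other cells had been bound and removed.

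A developing B cell joins 1 V segment to J (and, in the heavy chain, D) segments and transcribes the joined gene. A population of resting B cells uses many V genes, each cell at a modest level. A plasma cell, the antibody-secreting stage, makes very large amounts of RNA from 1 heavy and 1 light chain, so that a few plasma cell clones can dominate the V reads of a sample. T cells rearrange T cell receptor genes instead, and V reads in a T cell library are ordinarily read as RNA of other cells.

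The Ighv genes lie on chromosome 12 between 113572927 and 116010093, 183 of them on the minus strand, the Igkv genes on chromosome 6 between 67555497 and 70704177, and the Iglv genes on chromosome 16 between 19085017 and 19260859 (GRCm38, GENCODE M21). GENCODE lists 113 Ighv, 100 Igkv and 3 Iglv genes as functional, 130 members as pseudogenes and 2 as IG_LV genes. Of the 348 members, 250 had a count in at least 1 library and 98 had none, and 8 of the 98 were listed as functional. The transcript of 54 members was at least 97% identical to that of another V gene, so reads may be split between such copies, and somatic mutation, which B cells add to V genes, could shift reads between close relatives as well.

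The members whose counts carry the results below are shown as the second exon of the gene, which codes for the end of the leader peptide and the V region, read 5′ to 3′ on the coding strand from the GENCODE M21 transcripts. The first 290 bases are given. Each is set beside a close relative, and capitals mark the bases that differ from that relative in a global alignment. The first pair is Igkv14-111, the kappa gene with the largest fold change in CD4 cells (chr6:68256572-68256861, plus strand), with its family member Igkv14-126 (chr6:67896345-67896634, plus strand), identical at 91.7% of positions.
Igkv14-111: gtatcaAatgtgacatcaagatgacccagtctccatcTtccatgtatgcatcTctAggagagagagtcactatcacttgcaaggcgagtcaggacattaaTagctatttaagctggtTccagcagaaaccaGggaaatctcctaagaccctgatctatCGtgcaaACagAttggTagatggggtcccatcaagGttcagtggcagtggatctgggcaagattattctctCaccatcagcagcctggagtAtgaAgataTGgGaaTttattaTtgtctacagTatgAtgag
Igkv14-126: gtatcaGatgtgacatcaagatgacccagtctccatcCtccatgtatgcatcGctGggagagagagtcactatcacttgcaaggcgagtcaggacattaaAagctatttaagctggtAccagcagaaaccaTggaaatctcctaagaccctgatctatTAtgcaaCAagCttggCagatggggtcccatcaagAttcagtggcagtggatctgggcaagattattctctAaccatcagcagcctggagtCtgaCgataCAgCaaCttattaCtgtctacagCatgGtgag

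The second pair is Ighv5-17 (chr12:113859164-113859453, minus strand), the heavy-chain gene with the largest share of any CD4 library, and Ighv5-9 (chr12:113661786-113662075, minus strand), the V gene with the largest fold change in CD8 cells. They are identical at 89.3% of positions, with 31 bases that differ.
Ighv5-17: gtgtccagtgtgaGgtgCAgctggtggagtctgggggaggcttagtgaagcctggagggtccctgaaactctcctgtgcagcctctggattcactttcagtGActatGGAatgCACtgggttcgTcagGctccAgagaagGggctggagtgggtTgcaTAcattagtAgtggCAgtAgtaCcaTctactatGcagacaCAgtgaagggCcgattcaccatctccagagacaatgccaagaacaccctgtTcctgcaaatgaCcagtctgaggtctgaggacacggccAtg
Ighv5-9: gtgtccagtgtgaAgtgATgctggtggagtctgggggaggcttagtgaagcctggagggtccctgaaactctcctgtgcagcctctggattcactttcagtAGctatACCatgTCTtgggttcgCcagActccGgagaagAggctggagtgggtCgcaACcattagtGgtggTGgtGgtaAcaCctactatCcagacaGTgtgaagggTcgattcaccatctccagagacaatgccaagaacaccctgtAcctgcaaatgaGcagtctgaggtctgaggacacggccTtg

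A further pair shows how little separates some of the most used kappa genes: Igkv1-117 (chr6:68121515-68121804, plus strand) and Igkv1-110 (chr6:68270955-68271244, plus strand) differ at 7 of 290 bases, and their separate counts are uncertain for that reason.
Igkv1-117: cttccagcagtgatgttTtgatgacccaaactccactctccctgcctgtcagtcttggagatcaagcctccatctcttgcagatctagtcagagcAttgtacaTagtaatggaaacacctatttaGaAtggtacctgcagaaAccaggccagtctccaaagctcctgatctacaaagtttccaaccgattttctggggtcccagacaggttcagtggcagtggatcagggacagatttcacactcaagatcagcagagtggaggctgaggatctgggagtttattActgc
Igkv1-110: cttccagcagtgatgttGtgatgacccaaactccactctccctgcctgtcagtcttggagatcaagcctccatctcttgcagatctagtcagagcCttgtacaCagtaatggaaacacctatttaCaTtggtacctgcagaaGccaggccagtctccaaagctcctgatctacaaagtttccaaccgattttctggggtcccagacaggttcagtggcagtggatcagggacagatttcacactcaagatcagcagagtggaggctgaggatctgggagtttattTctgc

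The last pair is Iglv1 (chr16:19085032-19085321, minus strand) and Iglv2 (chr16:19260416-19260705, minus strand), 2 of the 3 lambda genes, which differ at 8 of 290 bases.
Iglv1: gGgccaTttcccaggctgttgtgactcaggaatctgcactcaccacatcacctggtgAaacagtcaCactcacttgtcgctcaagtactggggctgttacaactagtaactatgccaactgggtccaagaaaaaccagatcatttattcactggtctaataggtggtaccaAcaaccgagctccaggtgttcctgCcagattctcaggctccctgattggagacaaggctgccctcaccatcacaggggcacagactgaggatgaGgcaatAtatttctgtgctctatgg
Iglv2: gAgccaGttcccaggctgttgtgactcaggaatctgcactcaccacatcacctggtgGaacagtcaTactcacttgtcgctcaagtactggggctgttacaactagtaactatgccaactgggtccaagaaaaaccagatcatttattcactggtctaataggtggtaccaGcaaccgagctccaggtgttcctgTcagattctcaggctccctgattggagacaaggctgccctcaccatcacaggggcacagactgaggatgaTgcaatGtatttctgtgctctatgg

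In CD4 cells the totals of L-gp130 libraries were 17781085 to 21226510 estimated counts and those of control libraries 27855757 to 35869208. In CD8 cells they were 17217364 to 19476881 for L-gp130 and 17719183 to 19286396 for control libraries. Thus in CD4 cells depth and genotype cannot be told apart. The labels give males for 4 L-gp130 and 1 control library of CD4 cells, and for 2 L-gp130 and 4 control libraries of CD8 cells. In control CD4 replicate 5, labelled female, Xist stood at 0.120 CPM (counts scaled to library size) and the Y-linked Ddx3y at 121 CPM. That library and L-gp130 CD4 replicate 1, which stood apart from the other CD4 libraries in expression, are treated below as the 2 libraries in doubt. Cd4 levels followed the labelled cell types: among CD4 libraries Cd4 was at 531 to 799 CPM for L-gp130 and 670 to 796 CPM for control mice, and among CD8 libraries at 9.82 to 10.97 CPM for L-gp130 and 3.33 to 20.4 CPM for control mice. B cell transcripts were present in all 21 libraries: 12 B cell genes summed to 294 to 736 CPM (L-gp130) and 320 to 1190 CPM (control) among CD4 libraries, and to 60.4 to 88.9 CPM (L-gp130) and 46.7 to 121 CPM (control) among CD8 libraries. Cd8a stood at 15.1 to 93.7 CPM in L-gp130 CD4 and 7.76 to 13.9 CPM in control CD4 libraries. In CD8 cells both Cd8 genes were lower in L-gp130 libraries: Cd8a was 778 to 909 CPM in L-gp130 and 952 to 1219 CPM in control libraries (log2 fold change -0.36 ± 0.08, edgeR adjusted p = 0.0112), and Cd8b1 was 560 to 670 CPM in L-gp130 and 830 to 1148 CPM in control libraries (-0.67 ± 0.10, adjusted p = 0.00147). Their part in the CD8 results below was not tested. Each library is 1 mouse number in the labels, and p-values measure the spread between these libraries.

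The first question was whether V transcripts changed with the genotype, and in CD4 cells their summed level was about 2-fold higher in L-gp130 libraries. Summed over all 348 genes, the TMM-normalised level had a lowest, median and highest value of 373, 571 and 785 CPM in L-gp130 CD4 libraries, against 157, 271 and 412 CPM in control CD4 libraries. The groups touched only at their edges: L-gp130 replicate 4, the lowest of its group, lay below control replicate 1, the highest of its group. The difference was 1.09 on the log2 scale, a ratio of 2.13 (exact permutation test over libraries, 2-sided, p = 0.00433, adjusted p = 0.0161 over 26 tests). Heavy-chain V genes differed by 1.21 and kappa V genes by 1.08 on that scale, each with the same adjusted p of 0.0161 in the exact permutation test. The 3 lambda genes, with a summed 24.3 to 54.8 CPM in L-gp130 CD4 libraries and 11.2 to 38.2 CPM in control CD4 libraries, differed by 0.58 and did not pass (exact permutation adjusted p = 0.127). V reads were scarce in all of these libraries, with 6806 to 15999 V counts in L-gp130 CD4 and 5323 to 14305 in control CD4 libraries, which were 0.0383% to 0.0754% of all counts in L-gp130 CD4 and 0.0160% to 0.0399% in control CD4 libraries.

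In CD8 cells the summed V level spread widely in L-gp130 libraries and the difference did not pass the test. The 3 L-gp130 CD8 libraries had 738, 232 and 1369 CPM in replicates 1 to 3, against 348, 282, 260, 119, 139 and 57.8 CPM in control replicates 1 to 6. L-gp130 replicates 1 and 3 lay above every control library, and L-gp130 replicate 2 lay among the controls. The difference of 1.86 on the log2 scale, a ratio of 3.62, had an exact permutation p of 0.0595 (adjusted p = 0.0910). With 3 libraries against 6 the smallest p was 0.0119, so the design could reach 0.05. Because these are bulk samples, more cells of a type and more RNA per cell cannot be told apart, here or in the results that follow.

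**Figure D1:**
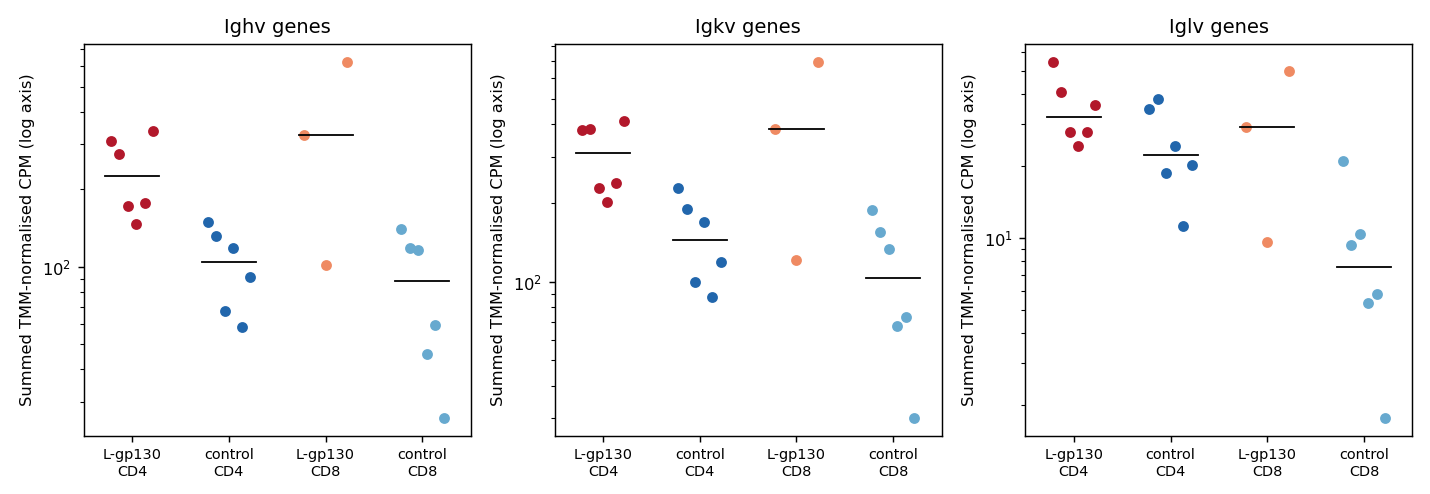
Summed TMM-normalised CPM of Ighv, Igkv and Iglv genes in each of the 21 libraries (log axis, 1 point per library, black line at the group median). L-gp130 CD4 libraries lie mostly above control CD4 libraries, at 147 to 337 against 58.4 to 149 CPM for Ighv and 202 to 412 against 87.3 to 228 CPM for Igkv, and the 3 L-gp130 CD8 libraries are spread widely.

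V gene usage was less even in CD4 libraries of L-gp130 mice. Evenness is given as the effective number of genes, the exponential of the Shannon entropy of the shares, which is the number of equally used genes that would be as diverse. For Ighv genes its lowest, median and highest values were 49.3, 57.7 and 59.5 in L-gp130 CD4 libraries, against 61.8, 62.9 and 64.8 in control CD4 libraries. For Igkv genes they were 45.7, 47.9 and 50.6 in L-gp130 CD4 libraries, against 53.8, 55.7 and 57.1 in control CD4 libraries. No L-gp130 library reached any control library at either locus. The means were 56.0 ± 4.17 against 63.2 ± 1.12 for Ighv and 47.97 ± 2.04 against 55.6 ± 1.29 for Igkv (SD, n = 6 each; exact permutation adjusted p = 0.0141 for both). After the expected effect of thinning every library to 473 Ighv and 549 Igkv counts, the differences were -6.43 and -6.88 genes, with the same adjusted p in the exact permutation test.

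The share held by the leading genes of each library was larger as well. The 10 most counted Igkv genes of a library held 45.9 ± 1.58% of Igkv counts in L-gp130 CD4 libraries and 38.7 ± 1.27% in control CD4 libraries (SD, n = 6 each; exact permutation adjusted p = 0.0141), without overlap. The largest Igkv gene alone held 7.84 ± 1.52% in L-gp130 CD4 and 7.66 ± 1.18% in control CD4 libraries (SD, n = 6 each; exact permutation adjusted p = 0.858). For Ighv the 10 largest held 38.1 ± 4.05% in L-gp130 CD4 and 32.5 ± 0.944% in control CD4 libraries (SD, n = 6 each; exact permutation adjusted p = 0.0169). The largest Ighv gene held 7.00 ± 2.25% in L-gp130 CD4 and 4.93 ± 0.526% in control CD4 libraries (SD, n = 6 each; exact permutation adjusted p = 0.0375). Without the 2 libraries in doubt the last 2 differences were 4.21 and 1.15 percentage points and did not pass (exact permutation adjusted p = 0.0516 and 0.0971).

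In CD8 cells the effective numbers differed in the other direction and did not pass. For Ighv genes they were 57.4, 55.9 and 47.5 in L-gp130 CD8 replicates 1 to 3, against 45.0, 47.99, 46.98, 40.5, 48.0 and 34.4 in control CD8 replicates 1 to 6 (exact permutation adjusted p = 0.0884). For Igkv genes they were 46.7, 47.2 and 43.6 in L-gp130 CD8 replicates 1 to 3, against 30.7, 42.2 and 49.6 as the lowest, median and highest control CD8 values (exact permutation adjusted p = 0.380). The control CD8 libraries held the fewest V counts, 1049 to 6425, against 4575 to 23932 in L-gp130 CD8 libraries. The library with the lowest Ighv value, control CD8 replicate 6, was also the one with 1049 V counts. At equal thinned depth the Ighv means were 49.2 ± 4.97 in L-gp130 CD8 (SD, n = 3) and 41.7 ± 4.15 in control CD8 libraries (SD, n = 6; exact permutation adjusted p = 0.103).

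**Figure D2:**
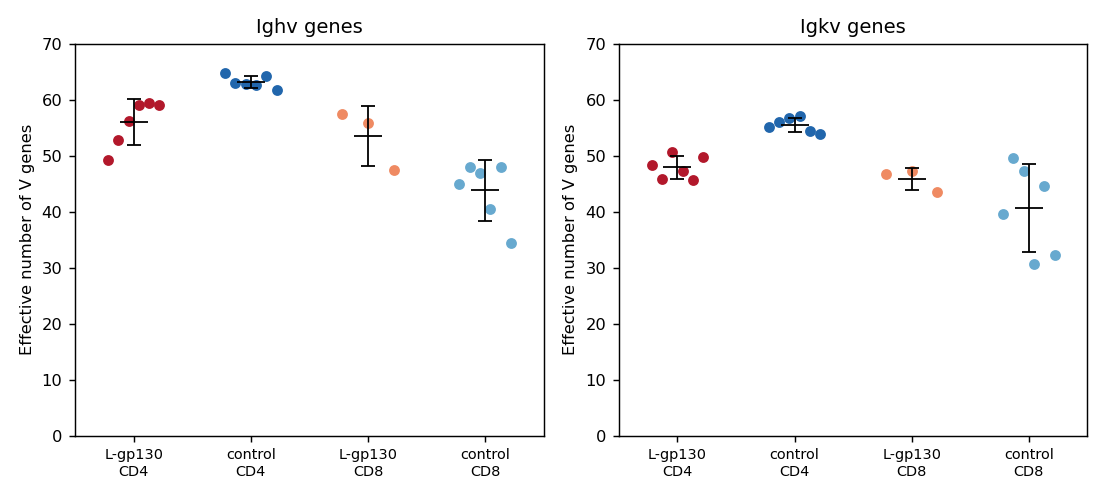
Effective number of Ighv genes (left) and Igkv genes (right) in each library, with the mean and SD of each group. Every L-gp130 CD4 library (49.3 to 59.5 for Ighv, 45.7 to 50.6 for Igkv) lies below every control CD4 library (61.8 to 64.8 and 53.8 to 57.1), which does not hold between the CD8 groups.

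The genotype difference in evenness had opposite signs in CD4 and CD8 cells. The L-gp130 minus control difference was -7.19 Ighv genes in CD4 and 9.78 in CD8 cells, and the CD4 difference minus the CD8 difference was -16.97 genes (genotype labels permuted within each cell type, 77616 relabellings, exact permutation p = 6.4e-05, adjusted p = 0.000837 over 13 measures). The Igkv differences were -7.60 in CD4 and 5.14 in CD8 cells (exact permutation adjusted p = 0.0400). The shares of the largest and of the 10 largest Ighv genes (adjusted p = 0.0216 for both) and of the 10 largest Igkv genes (adjusted p = 0.0485) also passed this exact permutation test, which was added after the data had been seen. Its null is that genotype changes nothing in either cell type. An effect in CD4 cells alone could therefore pass it, and the test cannot show that the effects differ between the cell types. At equal thinned depth the gap was -13.9 Ighv genes (exact permutation adjusted p = 0.00385) and -10.7 Igkv genes (adjusted p = 0.0485).

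Between the cell types of control mice, CD4 libraries used V genes more evenly than CD8 libraries. Set side by side on Salmon reads, because the deposited gene tables of the cell types are scaled separately, the effective number of Ighv genes was 63.2 ± 1.06 in control CD4 and 43.8 ± 5.48 in control CD8 libraries (SD, n = 6 each; exact permutation adjusted p = 0.00938). That of Igkv genes was 55.6 ± 1.28 in control CD4 and 40.8 ± 7.96 in control CD8 libraries (SD, n = 6 each; exact permutation adjusted p = 0.00938). With Salmon reads thinned to equal numbers the Ighv number was 16.07 genes higher in control CD4 than in control CD8 libraries (exact permutation adjusted p = 0.00938). In L-gp130 mice the means were 56.0 ± 4.17 in CD4 (SD, n = 6) and 53.7 ± 5.26 in CD8 libraries (SD, n = 3) for Ighv, and the difference of 2.29 genes did not pass (exact permutation adjusted p = 0.651). The cell types were purified in different ways, so cell type and purification cannot be told apart.

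Single V genes were tested in the fit over all genes, with edgeR's quasi-likelihood test. In CD4 cells 143 of the 348 members passed the filter on low counts, all of them listed as functional, and 44 of the 143 were higher in L-gp130 (27 Ighv and 17 Igkv), with 0 lower. Over all 15016 genes tested 11.1% were higher and 7.75% lower. Since a gene can pass the filter through its higher group alone, these counts describe the genes that passed and not all V genes. At an unadjusted p under 0.05 the test called 91 of the 143, against 33.4% of all genes tested, and DESeq2 called 53 higher and 0 lower, against 24.2% of all genes called in either direction. The median log2 fold change was 1.14 over 70 tested Ighv, 0.96 over 70 tested Igkv and 0.49 over 3 Iglv genes, and -0.0051 over all genes tested. In 11 of the 143 every L-gp130 CD4 library lay above every control CD4 library, against 7.67% of all genes tested, and in 0 every one lay below, against 5.83%.

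Igkv14-111, whose sequence is shown above, had the largest fold change among V genes in CD4 cells. Igkv14-111 (ENSMUSG00000095771) had a lowest, median and highest value of 7.50, 17.2 and 28.8 CPM in L-gp130 CD4 libraries, against 1.61, 2.52 and 4.25 CPM in control CD4 libraries. No library of the groups overlapped. The log2 fold change was 2.89 ± 0.37 (SE; edgeR adjusted p = 0.0003005). In CD8 cells it stood at 14.4, 7.76 and 36.4 CPM in L-gp130 replicates 1 to 3, against 4.22, 2.80, 2.79, 1.54, 1.21 and 0.710 CPM in control replicates 1 to 6, again without overlap (log2 fold change 2.98 ± 0.56, edgeR adjusted p = 0.00687).

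Igkv14-111 also made up a larger part of the kappa counts. Of all Igkv counts it held 5.38 ± 1.45% in L-gp130 CD4 and 1.86 ± 0.418% in control CD4 libraries (SD, n = 6 each). In CD8 cells it held 5.14 ± 1.35% in L-gp130 (SD, n = 3) and 2.07 ± 0.282% in control libraries (SD, n = 6). The lowest L-gp130 CD4 share was 3.70% and the highest control CD4 share 2.498%, and in CD8 cells the lowest L-gp130 share was 3.74% and the highest control share 2.36%. It was the only V gene whose share lay above that of every control library in both cell types; in CD4 cells no other V gene did so, and in CD8 cells Ighv5-9 did. Shares below every control library were seen for Igkv3-7 and Iglv3 in CD4 cells and for Ighv1-56 and Igkv4-86 in CD8 cells. The CD8 pair had few counts: Ighv1-56 had 0 in each L-gp130 and 2 to 11 in control CD8 libraries. Igkv4-86 had 1 to 11 in L-gp130 and 5 to 17 in control CD8 libraries. These are few of the 250 members with a count in any library. Shares are taken within a locus, so no value over all genes can be set beside them. Per length, on the TPM scale, Igkv14-111 had a mean 5.54% of Igkv TPM in L-gp130 CD4 libraries, below Igkv1-117 at 6.06% and Igkv10-96 at 6.02%. Its call held under every alternative and in every fit that left out 1 library, with a log2 fold change of 2.63 in CD4 cells without the 2 libraries in doubt.

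For Ighv5-17, every L-gp130 CD4 library lay above every control CD4 library, and L-gp130 replicate 1 had the highest level. Ighv5-17 (ENSMUSG00000095571) had a lowest, median and highest value of 4.96, 8.85 and 34.6 CPM in L-gp130 CD4 libraries, against 1.25, 2.98 and 3.84 CPM in control CD4 libraries. The 34.6 CPM belonged to L-gp130 replicate 1, where the gene made up 11.3% of Ighv counts. Elsewhere in the group it made up 2.72% to 6.21%, and in control CD4 libraries 2.14% to 2.92%. The log2 fold change was 2.20 ± 0.55 (edgeR adjusted p = 0.0179), and 1.70 without the 2 libraries in doubt. The call was lost without L-gp130 CD4 replicate 2 (1.865, edgeR adjusted p = 0.0809) or control CD4 replicate 1 (2.42, adjusted p = 0.0539). In CD8 cells it was 2.53 ± 0.61 (edgeR adjusted p = 0.0190), with 15.1, 2.55 and 32.0 CPM in L-gp130 replicates 1 to 3 against 1.05 to 4.39 CPM in control libraries. That call was lost without L-gp130 CD8 replicate 1 (2.21) or 3 (1.80) or control CD8 replicate 6 (2.36). Its share of Ighv counts overlapped there, between 2.51% and 5.13% for L-gp130 CD8 and between 1.76% and 9.87% for control CD8 libraries.

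Other heavy-chain genes with large rises in CD4 cells were Ighv7-1, Ighv6-6, Ighv1-80, Ighv1-26 and Ighv1-81. Ighv7-1 rose by 2.19 ± 0.40 on the log2 scale (edgeR adjusted p = 0.00277), with 1.94 to 8.99 CPM in L-gp130 CD4 and 0.696 to 1.24 CPM in control CD4 libraries. Ighv6-6 had 1.93 ± 0.41 (edgeR adjusted p = 0.00703), with 1.86 to 9.65 CPM in L-gp130 CD4 and 0.885 to 2.31 CPM in control CD4 libraries. Ighv1-26, the heavy-chain gene with the largest share of Ighv TPM in both CD4 groups (6.44% in L-gp130, 4.94% in control), had 1.75 ± 0.35 (edgeR adjusted p = 0.00480). Its 5.09 to 20.8 CPM in L-gp130 CD4 libraries overlapped the 2.59 to 6.12 CPM of control CD4 libraries. Ighv1-81 had 1.75 ± 0.32 (edgeR adjusted p = 0.00291) and Ighv1-80 had 1.84 ± 0.48 (adjusted p = 0.0184). Of the most used heavy-chain genes, Ighv1-72 also rose (1.48 ± 0.38, edgeR adjusted p = 0.0186), while Ighv1-64 (0.75 ± 0.33, adjusted p = 0.126) and Ighv3-6 (1.26 ± 0.42, adjusted p = 0.0544) did not pass. Ighv1-72 is 99.2% identical to Ighv1-62-3, so its count may hold reads of both.

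Among the kappa genes, Igkv5-39 and Igkv10-96 rose in CD4 cells. Igkv5-39 stood between 3.66 and 21.6 CPM in L-gp130 CD4 and between 1.55 and 3.91 CPM in control CD4 libraries (log2 fold change 2.10 ± 0.40, edgeR adjusted p = 0.00404), and in CD8 cells 7.35, 3.02 and 7.55 CPM in L-gp130 replicates 1 to 3 against 0.476 to 1.53 CPM in control libraries (2.46 ± 0.37, adjusted p = 0.00148). Igkv10-96 had 9.17 to 27.0 CPM in L-gp130 CD4 and 3.94 to 8.89 CPM in control CD4 libraries, without overlap (1.51 ± 0.29, edgeR adjusted p = 0.00398). Igkv4-74 had 1.93 ± 0.57 (adjusted p = 0.0317), and without L-gp130 replicate 6 it was 1.07 and did not pass. Igkv1-110 rose by 1.13 ± 0.30 (adjusted p = 0.0212), whereas its near copy Igkv1-117, at 0.87 ± 0.29 (adjusted p = 0.0525), and Igkv1-135, at 0.57 ± 0.33 (adjusted p = 0.248), did not pass.

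In CD8 cells 138 members passed the filter and 30 were higher in L-gp130 (19 Ighv and 11 Igkv), with 0 lower, where 10.5% of all 14254 genes tested were higher and 10.5% lower. Here too a gene can pass the filter through its higher group alone, so the counts and medians describe the genes that passed. The test called 76 at an unadjusted p under 0.05, against 35.2% of all genes tested, and DESeq2 called 54 higher and 0 lower, against 25.9% of all genes called in either direction. Median log2 fold changes were 1.94 over 69 tested Ighv, 1.80 over 66 tested Igkv and 1.66 over 3 Iglv genes, and -0.0121 over all genes tested. In 21 of the 138 every L-gp130 CD8 library lay above every control CD8 library, against 11.8% of all genes tested. The count rested on single libraries: it was 6 without L-gp130 CD8 replicate 3, 7 (with 1 lower) without replicate 1 and 53 without replicate 2, and 16 without control CD8 replicate 3. In CD4 cells it was 10 without L-gp130 replicate 6, 19 without L-gp130 replicate 2, 26 without control replicate 6 and 27 without control replicate 3.

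Ighv5-9 had the largest fold change among V genes in CD8 cells. Its level was 6.88, 1.21 and 20.6 CPM in L-gp130 CD8 replicates 1 to 3, against 0 to 0.614 CPM with a median of 0.254 in control CD8 libraries. These were 136, 24 and 360 counts in L-gp130 CD8 replicates 1 to 3 and 0 to 11 counts in control CD8 libraries, so the gene passed the filter through the L-gp130 libraries and the size of its fold rests on few control counts. The log2 fold change was 4.81 ± 0.87 (edgeR adjusted p = 0.00521). Its share of Ighv counts was 2.12%, 1.197% and 3.30% in those L-gp130 replicates and at most 0.530% in control CD8 libraries. In CD4 cells it had 0.485 to 3.01 CPM in L-gp130 and 0.0377 to 0.796 CPM in control libraries (1.80 ± 0.65, edgeR adjusted p = 0.0717).

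The other large CD8 rises were seen for genes of low level in controls. Ighv1-31 had 3.28, 0.692 and 4.33 CPM in L-gp130 CD8 replicates 1 to 3, against at most 0.682 CPM in control CD8 libraries (65, 14 and 76 counts in L-gp130 replicates 1 to 3, 0 to 13 counts in control libraries; log2 fold change 3.72 ± 0.88, edgeR adjusted p = 0.0154), and was too low to be tested in CD4 cells. It passed the filter through the L-gp130 libraries, and the size of its fold rests on few control counts. Ighv2-9 (3.48 ± 0.88, edgeR adjusted p = 0.0200), Ighv6-6 (3.13 ± 0.65, adjusted p = 0.00771) and Ighv1-52 (2.84 ± 0.79, adjusted p = 0.0316) rose in both cell types. Ighv1-62-2 (3.35 ± 0.81, adjusted p = 0.0179) is 99.7% identical to Ighv1-71, so its reads cannot be placed with certainty. Of the kappa genes, Igkv3-12 had 3.04 ± 0.54 (adjusted p = 0.00344) in CD8 cells and 0.41 ± 0.39 (adjusted p = 0.501) in CD4 cells. Ighv2-9, Ighv6-6, Ighv1-52, Ighv1-62-2 and Igkv3-12 had 15 to 174 counts in L-gp130 CD8 and 0 to 35 counts in control CD8 libraries, so the sizes of their folds rest on few control counts too. The most used V genes of CD8 libraries did not pass: Igkv10-96, with 9.40% of Igkv TPM in L-gp130 CD8 and 8.37% in control CD8 libraries, had 2.03 ± 0.70 (edgeR adjusted p = 0.0767), and Ighv1-72 had 1.76 ± 0.95 (adjusted p = 0.232).

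The genes called in both cell types numbered 14, which is 31.8% of the 44 called in CD4 and 46.7% of the 30 called in CD8 cells. Over all genes called higher, 40.3% of those in CD4 and 45.2% of those in CD8 cells were called higher in both, so these shares are near the background. They were Ighv1-9, Ighv1-52, Ighv1-55, Ighv2-9, Ighv5-17, Ighv6-3, Ighv6-6 and Ighv14-3 among heavy-chain genes, and Igkv5-39, Igkv8-19, Igkv8-28, Igkv12-46, Igkv14-111 and Igkv15-103 among kappa genes. Of 132 members tested in both fits, 125 had a positive log2 fold change in both, against 33.7% of the 13819 genes tested in both. These members passed both filters, which a gene can do through its higher group alone. The cell type by genotype term, which asks whether a gene's fold change differs between CD4 and CD8 cells, called 0 of 157 tested members with edgeR, against 3.45% of all genes tested (1.83% with the higher fold change in CD4 cells). At an unadjusted p under 0.05 it called 12, against 17.5% of all genes tested. With no filter on low counts it called 1. The term was positive for 23 of the 157 members, against 8661 of the 15750 genes tested. Its median was -0.82 on the log2 scale over the members and 0.035 over all genes tested. Most members thus had the higher fold change in CD8 cells.

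**Figure D3:**
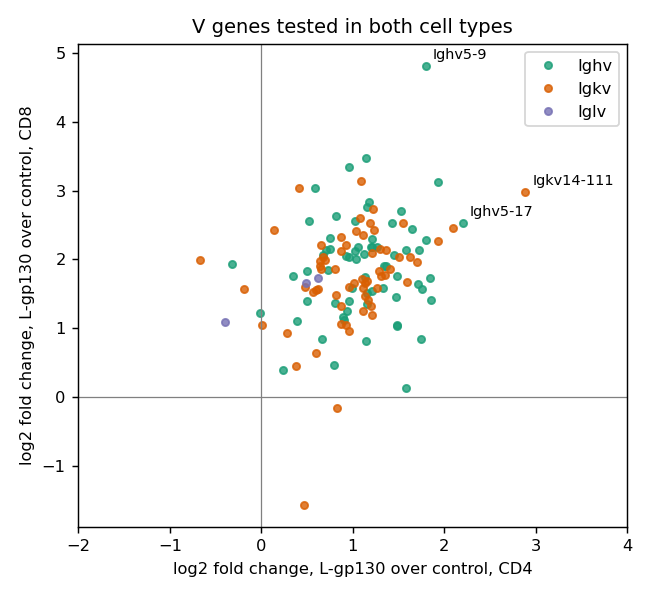
Log2 fold change, L-gp130 over control, of the 132 V genes tested in both cell types, in CD4 cells (horizontal) and CD8 cells (vertical), coloured by locus. Of the points 125 lie above 0 on both axes, with Igkv14-111 at 2.89 and 2.98 and Ighv5-9 at 1.80 and 4.81.

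Usage was also summed over the families into which V genes are grouped by sequence. The largest, Ighv1, with 93 of the 185 genes, held 53.7 ± 2.95% of Ighv counts in L-gp130 CD4 and 53.8 ± 2.32% in control CD4 libraries (SD, n = 6 each), and 55.1 ± 3.81% in L-gp130 CD8 (SD, n = 3) and 64.0 ± 3.66% in control CD8 libraries (SD, n = 6). Family Ighv5 held 10.4 ± 2.76% in L-gp130 CD4 and 8.55 ± 1.30% in control CD4 libraries. Family Igkv14, to which Igkv14-111 belongs, held 6.46 ± 1.48% of Igkv counts in L-gp130 CD4 and 3.63 ± 0.996% in control CD4 libraries, and 6.07 ± 1.25% in L-gp130 CD8 and 2.83 ± 0.806% in control CD8 libraries. These family shares were not tested.

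The gene that led a library varied within groups. Ighv1-26 led the Ighv counts of 3 L-gp130 CD4 libraries, Ighv5-17 of 2 and Ighv1-72 of 1. In control CD4 libraries Ighv1-26 and Ighv1-72 led 2 each, and Ighv3-6 and Ighv9-3 led 1 each. In CD8 libraries Ighv1-72 led 2 of 3 L-gp130 and 3 of 6 control libraries, with a share of up to 11.9% in control CD8 replicate 5. Igkv1-117 led all 6 control CD4 libraries but 3 of 6 L-gp130 CD4 libraries, where Igkv14-111 led replicates 1 and 2 and Igkv10-96 led replicate 6. In CD8 cells Igkv10-96 led all 3 L-gp130 libraries and 3 of 6 control libraries, and Igkv1-117 led the other 3 controls, with up to 15.1% in replicate 4.

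**Figure D4:**
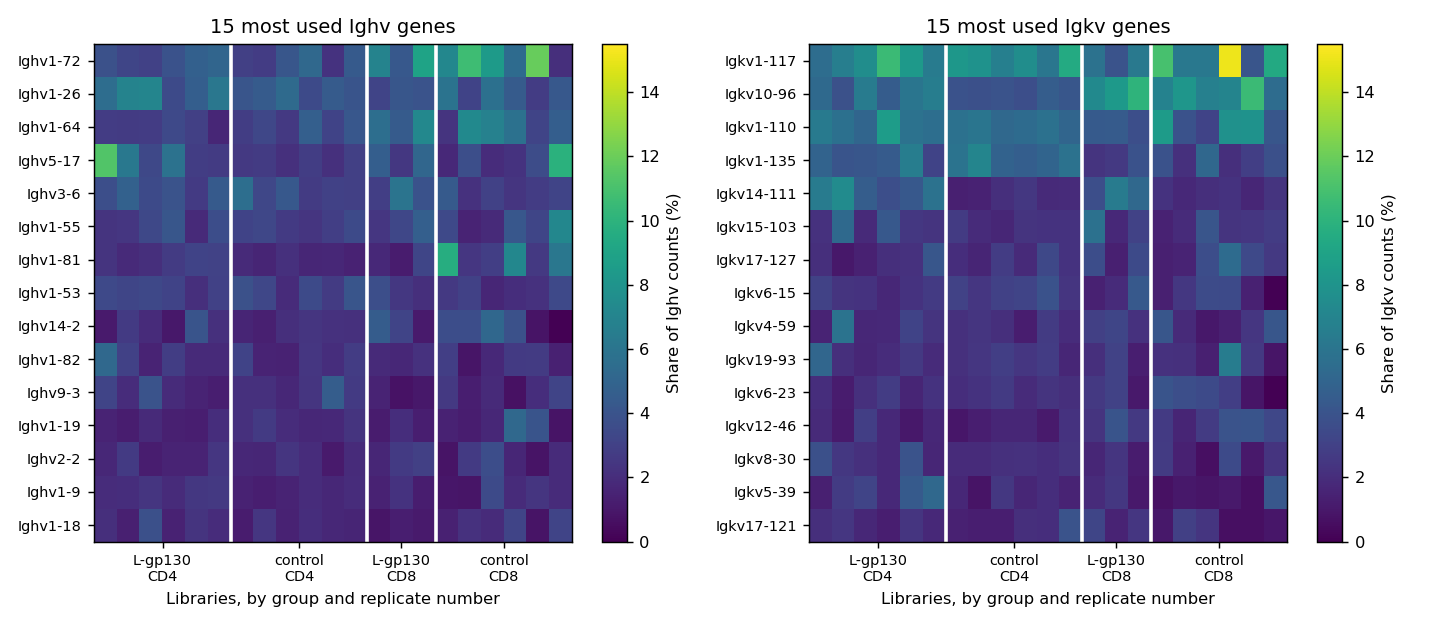
Share of Ighv counts (left) and of Igkv counts (right) held by the 15 most used genes of each locus in each library, with white lines between groups. Igkv14-111 is brighter in L-gp130 libraries of both cell types (3.70% to 7.50% in CD4, 3.74% to 6.43% in CD8) than in controls (1.35% to 2.50% in CD4, 1.65% to 2.36% in CD8). Of the heavy-chain genes, Ighv5-17 reaches 11.3% in L-gp130 CD4 replicate 1. Ighv1-72 reaches 10.7%, 8.45% and 11.9% in control CD8 replicates 2, 3 and 5.

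Lambda V genes took a smaller part of light-chain usage in CD4 cells of L-gp130 mice. The Iglv share of Igkv plus Iglv counts had a lowest, median and highest value of 8.10%, 10.6% and 12.6% in L-gp130 CD4 libraries, against 11.4%, 13.9% and 16.8% in control CD4 libraries. The groups overlapped, and the means of 10.4 ± 1.47% and 14.1 ± 2.04% differed (SD, n = 6 each; exact permutation adjusted p = 0.0169). In CD8 libraries the share was 7.06 ± 0.323% in L-gp130 (SD, n = 3) and 7.20 ± 1.63% in controls (SD, n = 6; exact permutation adjusted p = 0.869). Set against each other on Salmon reads, control CD4 libraries had 14.1 ± 2.06% and control CD8 libraries 7.18 ± 1.63% (SD, n = 6 each; exact permutation adjusted p = 0.00938), and L-gp130 CD4 libraries also had more than L-gp130 CD8 libraries (10.4 ± 1.48%, n = 6, and 7.04 ± 0.343%, n = 3; exact permutation adjusted p = 0.0310).

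Within the lambda genes, Iglv3 held 6.37% to 9.89% of Iglv counts in L-gp130 CD4 libraries and 10.3% to 18.6% in control CD4 libraries, without overlap. Its level was 1.90 to 3.54 CPM in L-gp130 CD4 and 1.64 to 5.60 CPM in control CD4 libraries, and the log2 fold change of -0.39 ± 0.30 did not pass (edgeR adjusted p = 0.391). Iglv1 had 0.62 ± 0.28 (adjusted p = 0.150) and Iglv2 had 0.49 ± 0.52 (adjusted p = 0.5415) in CD4 cells. The span of Iglv1 overlaps that of a gene on the other strand, 2010309G21Rik, and the libraries carry no strand. Whether their exons overlap was not examined, so the Iglv1 count may hold reads of both genes.

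The V counts were next set against transcripts of B cells, since resting B cells and plasma cells differ in how much V RNA stands beside B cell surface and transcription factor genes. In CD4 libraries there were 0.579, 1.25 and 2.32 V counts per count of the 12 B cell genes in L-gp130 (lowest, median, highest), against 0.303, 0.373 and 0.491 in control libraries. No L-gp130 library overlapped a control library, and the ratio was 3.35 times that of controls (exact permutation adjusted p = 0.0141). In CD8 libraries there were 8.30, 3.30 and 22.7 V counts per B cell count in L-gp130 replicates 1 to 3, against 1.24, 2.43 and 3.12 as the lowest, median and highest control values. These did not overlap either, with a ratio of 3.83 times that of controls (exact permutation p = 0.0119, the smallest this design allows, adjusted p = 0.0281). Permuted within sex, it did not pass (exact permutation p = 0.0222, adjusted p = 0.0525), but that p was the smallest such relabelling allows. With 1 CD8 library left out the log2 difference was 1.23 to 2.62. It did not pass when any 1 of the L-gp130 CD8 libraries was left out. Fewer libraries raise the smallest possible p, so these failures cannot show that the difference rested on 1 library. Control CD8 libraries had the higher value of the cell types: on Salmon reads the control CD4 ratio was 0.160 times the control CD8 ratio (n = 6 each; exact permutation adjusted p = 0.00938).

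Of the 12 B cell genes all had a negative log2 fold change in CD4 cells, and 6 fell (edgeR; 7.75% of all genes tested were lower): Cd79b, a signalling chain of the B cell receptor (-1.27 ± 0.37, adjusted p = 0.0366), Ms4a1, which encodes CD20 (-1.15 ± 0.35, adjusted p = 0.0399), Ebf1, a B lineage transcription factor (-1.24 ± 0.33, adjusted p = 0.0218), Fcrla (-1.34 ± 0.31, adjusted p = 0.0113), Fcer2a, which encodes CD23 (-1.49 ± 0.40, adjusted p = 0.0257), and Bank1, a B cell adaptor (-1.29 ± 0.33, adjusted p = 0.0199). In CD8 cells Bank1 fell (-0.90 ± 0.25, adjusted p = 0.0265) and the other 11 did not pass. The summed B cell genes had a lowest, median and highest value of 294, 384 and 736 CPM in L-gp130 CD4 libraries, against 320, 741 and 1190 CPM in control CD4 libraries. B cells and plasma cells were not counted in these data, and the part of either in the V counts was not tested.

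**Figure D5:**
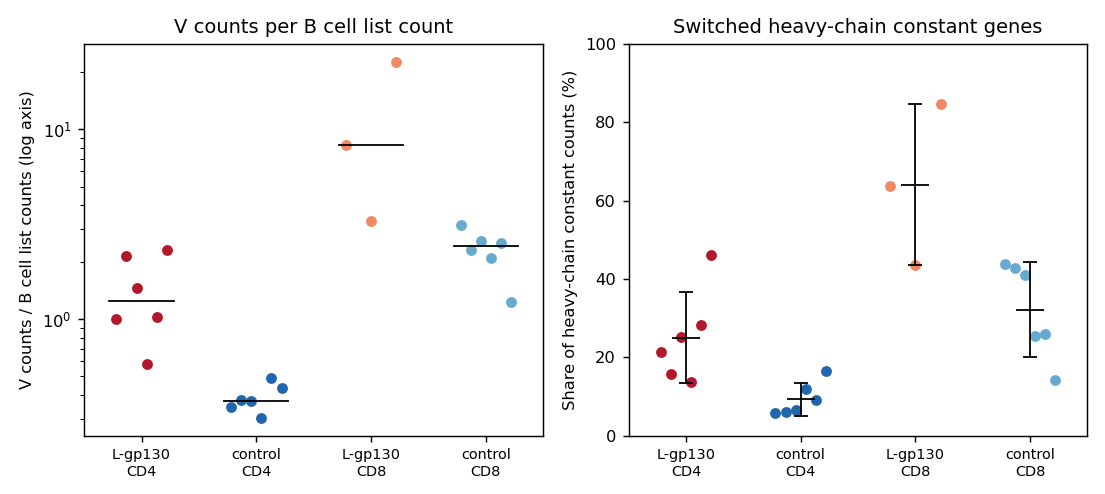
V counts per count of the 12 B cell genes (left, log axis, black line at the group median) and share of heavy-chain constant counts from the switched genes Ighg1, Ighg2b, Ighg2c, Ighg3, Igha and Ighe (right, mean and SD), 1 point per library. In both cell types every L-gp130 library lies above every control library on the left, at 0.579 to 2.32 against 0.303 to 0.491 in CD4 and 3.30 to 22.7 against 1.24 to 3.12 in CD8.

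The switched classes held a larger mean share of heavy-chain constant counts in L-gp130 libraries of both cell types. Activated B cells replace the IgM constant region, encoded by Ighm, with one for IgG, IgA or IgE. The share also depends on Ighm, which did not follow the V level. Control CD8 replicate 1 had 497 CPM of Ighm and 348 CPM of V genes, and control CD8 replicate 6 had 389 and 57.8 CPM. Whether the classes joined to V segments changed was not tested. The switched share of heavy-chain constant counts had a lowest, median and highest value of 13.6%, 23.3% and 46.0% in L-gp130 CD4 libraries, against 5.89%, 7.80% and 16.4% in control CD4 libraries. The groups overlapped, and the means of 25.0 ± 11.7% and 9.31 ± 4.22% differed (SD, n = 6 each; exact permutation adjusted p = 0.0169). In CD8 libraries it was 63.7%, 43.6% and 84.7% in L-gp130 replicates 1 to 3, against 14.1%, 33.5% and 43.7% as the lowest, median and highest control values (exact permutation adjusted p = 0.0476, and 0.0825 when permuted within sex). With 1 CD8 library left out the difference was 21.5 to 42.05 percentage points and passed in 1 of 9 fits. The smallest p that such a fit can reach is larger than with all libraries. Without the 2 libraries in doubt the CD4 difference was 16.4 percentage points and did not pass (exact permutation adjusted p = 0.0516).

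Of 12 constant-region genes 7 rose in CD4 cells and 0 fell, against 11.1% higher and 7.75% lower of all genes tested: Ighg1, Ighg2b, Ighg2c, Ighg3, Igha, Ighe and the kappa gene Igkc. Ighg2b had 40.8 to 144 CPM in L-gp130 CD4 and 4.95 to 14.02 CPM in control CD4 libraries, without overlap (log2 fold change 3.18 ± 0.36, edgeR adjusted p = 0.000198). Ighg1 had 4.32 to 94.5 CPM in L-gp130 CD4 and 2.40 to 3.53 CPM in control CD4 libraries; it rose by 3.57 ± 0.58 on the log2 scale (edgeR adjusted p = 0.00199), with the 94.5 CPM in replicate 6. Ighg2c had 3.44 ± 0.41 (edgeR adjusted p = 0.000226), Ighg3 1.89 ± 0.56 (adjusted p = 0.0362) and Igha 1.95 ± 0.44 (adjusted p = 0.0109). Ighe was at 0.604 to 2.59 CPM in L-gp130 CD4 libraries, and in control CD4 libraries at 0 in 4 of 6 and at most 0.268 CPM. It passed the filter on low counts through the L-gp130 libraries, so among the 7 it could only be called higher. Igkc rose by 1.04 ± 0.31 (edgeR adjusted p = 0.0399). Without the 2 libraries in doubt Igkc (0.85, edgeR adjusted p = 0.0769) and Ighg3 (1.95, adjusted p = 0.0555) did not pass. Ighm (0.30 ± 0.23, adjusted p = 0.392) did not pass. Ighm had 828 to 1505.5 CPM in L-gp130 CD4 and 601 to 1226 CPM in control CD4 libraries, and it also stood at 389 to 497 CPM in control CD8 libraries, where V genes summed to 57.8 to 348 CPM.

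In CD8 cells Ighg1 (3.32 ± 0.68, edgeR adjusted p = 0.0121) and Ighg3 (2.65 ± 0.53, adjusted p = 0.00645) rose, of 11 constant-region genes tested, against 10.5% of all genes tested. Igha was the most abundant switched gene there, at 662, 193 and 1867 CPM in L-gp130 CD8 replicates 1 to 3 and 61.8 to 358 CPM in control CD8 libraries, and it did not pass (1.80 ± 0.77, edgeR adjusted p = 0.143). It made up 52.4%, 32.05% and 77.5% of heavy-chain constant counts in those L-gp130 replicates and 13.2% to 38.8% in control CD8 libraries. L-gp130 CD8 replicate 3 was thus highest in V counts, in switched share and in Igha.

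Of 8 plasma cell genes 7 were tested in CD4 cells, and 2 rose, against 11.1% of all genes tested: Jchain, which joins IgM and IgA into polymers (1.77 ± 0.27, edgeR adjusted p = 0.00131), and Derl3, an endoplasmic reticulum degradation factor (1.36 ± 0.32, adjusted p = 0.0121). Jchain had 66.3 to 164 CPM in L-gp130 CD4 and 20.4 to 50.9 CPM in control CD4 libraries, without overlap. Sdc1, Mzb1, Txndc5, Fkbp11 and Tnfrsf13b did not pass, and Tnfrsf17 was too low to be tested. Of the 7 tested, 5 had a positive log2 fold change. Mzb1 was at -0.20 ± 0.26 (edgeR adjusted p = 0.627) and Tnfrsf13b at -0.35 ± 0.13 (adjusted p = 0.0776). For Tnfrsf13b every L-gp130 CD4 library (33.7 to 55.7 CPM) lay below every control CD4 library (56.6 to 68.9 CPM). In CD8 cells 0 of the 8 were called with edgeR, against 10.5% higher of all genes tested (3 at an unadjusted p under 0.05, against 35.2%), with Jchain at 1.73 ± 0.65 (adjusted p = 0.101). Xbp1 and Irf4, factors of plasma cells that T cells also express, rose in CD4 cells (0.44 ± 0.11, adjusted p = 0.0148, and 0.29 ± 0.07, adjusted p = 0.0153) and in CD8 cells (0.70 ± 0.12, adjusted p = 0.00278, and 0.77 ± 0.18, adjusted p = 0.0144), and Prdm1 did not pass in either.

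Of 6 germinal centre B cell genes 4 were tested in CD4 cells and 1, Mybl1, rose, against 11.1% of all genes tested (1.40 ± 0.32, edgeR adjusted p = 0.00913). None of the 28 D and J segments listed as genes passed the filter in either cell type.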

How the data were processed

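PolyA RNA was sequenced as unstranded 150-base paired reads from 21 libraries. The authors deposited estimated counts per gene, scaled by transcript length and separately for CD4 and CD8 cells, and Salmon estimated counts and TPM per transcript for each library; per the submitters' processing notes, cutadapt 3.4, Trimmomatic 0.39, Salmon 1.5.2, edgeR 3.34.1 and GRCm38 were used, with no role or order given. Here the deposited gene counts were rounded and tested with edgeR 4.0.16 (quasi-likelihood, TMM, filterByExpr, sex as covariate, CD4 and CD8 fitted separately), calling adjusted p under 0.05 after Benjamini-Hochberg adjustment over all genes tested. The cell type comparison and the cell type by genotype term used Salmon reads summed per gene. V genes were taken by symbol, with positions and types from GENCODE M21. The 13 summary measures were compared by 2-sided exact permutation tests (924 or 84 relabellings), adjusted over 26 tests. Intervals of replication, given as SD or SE, are between libraries. Numbers of V counts limit the precision of shares. DESeq2 1.42.0, other scalings, filters, thinning and fits without single libraries were tried as alternatives. Named were the 5 most used Ighv and Igkv genes over all libraries, every Iglv gene, up to 8 called V genes per cell type with the largest fold change at a mean log2 CPM of at least 0, the leading V gene of each library and all list genes; Igkv14-126, Igkv3-7, Ighv1-56, Igkv4-86 and the further genes called in both cell types were named after their values were seen. The members, gene lists and tests were chosen with earlier results of these data known. Scripts were tested on simulated data. 1 gene of the germinal centre list is not reported here.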

Additional observations from a re-analysis of the deposited data

Results flagged for a closer look

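In 173 groups of 6 libraries, 16 had 1 library far from the other 5, where chance gives about 5% of groups. The largest Ighv share of L-gp130 CD4 replicate 1 was 11.27%, against 4.748% to 7.042% in the rest of its group. Other L-gp130 CD4 libraries stood apart in single genes. Ighv7-1 was 8.989 CPM in replicate 2 (1.938 to 4.492 in the others), Igkv3-12 was 3.583 CPM in replicate 1 (0.9229 to 1.664), and Xbp1 was 120.9 CPM in replicate 1 (77.92 to 90.7). Replicate 6 stood apart in Ighv1-62-2 at 3.984 CPM (1.308 to 2.067), Igkv4-74 at 5.468 CPM (0.7442 to 2.394), Ighg1 at 94.54 CPM (4.323 to 32.48) and Ighg2b at 143.8 CPM (40.77 to 71.72).

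Among control CD4 libraries, Ighv2-9 was 2.126 CPM in replicate 1 (0.6199 to 0.9818 in the others) and Ighe was 0.2678 CPM in replicate 4 (0 to 0.02737). Among control CD8 libraries, replicate 1 stood apart in Ighv1-81 at 13.48 CPM (1.53 to 3.319) and in Igkv1-110 at 15.92 CPM (1.256 to 6.057). Replicate 2 stood apart in Ighv1-52 at 1.923 CPM (0.1128 to 0.7198) and in Derl3 at 3.175 CPM (0.7051 to 1.487). Igkv3-12 was 1.829 CPM in replicate 3 (0.07711 to 0.6622) and Ighv1-31 was 0.6821 CPM in replicate 5 (0 to 0.1913).

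For 5 measures the gap between the CD4 and CD8 differences, each L-gp130 minus control, passed an exact permutation of genotype labels within each cell type. The null there is no genotype effect in either cell type. An effect in CD4 cells alone could therefore pass. The CD4 difference minus the CD8 difference was -16.97 for the effective number of Ighv genes, -12.74 for that of Igkv genes, and 4.428, 10.93 and 10.53 percentage points for the share of the largest Ighv gene, the 10 largest Ighv genes and the 10 largest Igkv genes. The first kept its call in each of 21 fits that left out 1 library. The calls for the largest and 10 largest Ighv genes were lost without L-gp130 CD8 replicate 1 or 2, and those for the effective number of Igkv genes and the 10 largest Igkv genes held in 14 and 6 of the 21.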

How the results depend on the processing

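The number of V genes called higher in CD4 cells was 44. It was 67 with no sex covariate, and 55 with sex read from Xist and Ddx3y in place of the label. At an adjusted p under 0.01 it was 9, and with DESeq2 53. It was 32 with no filter on low counts, 42 on counts thinned to the smallest library and 10 to 56 when 1 library was left out. The 30 calls in CD8 cells became 54 with DESeq2, 6 at an adjusted p under 0.01 and 6 to 53 when 1 library was left out. The cell type by genotype term called 0 V genes, and 1 with no filter on low counts. With the replicate number as a block the CD4 count was 27 and the CD8 count 25. Deviations of same-numbered libraries correlated at -0.29 to 0.22 in CD4 and -0.026 to 0.21 in CD8 cells. No clear pairing by number was seen, but whether some numbers were handled together cannot be told from these values.

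When labels were permuted within sex, the CD8 difference in V counts per B cell count (1.937, log2) and in switched share (31.84 percentage points) no longer passed. For the first, the p was the smallest that such relabelling allows. With 1 library left out they ranged from 1.232 to 2.622 and from 21.49 to 42.05. The first did not pass without any 1 of the L-gp130 CD8 libraries, and the second held in 1 of 9 fits. Fewer libraries raise the smallest possible p, so losses without an L-gp130 CD8 library cannot show dependence on that library. With near-identical V genes summed, the CD8 difference in the effective number of Ighv genes was 9.109 and passed (exact permutation adjusted p = 0.0442). The CD4 switched share without the 2 libraries in doubt differed by 16.4 points and did not pass. The cause of these changes was not tested.

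Differences that changed sign had not passed the test. Between L-gp130 CD4 and L-gp130 CD8 libraries, the largest Igkv share with near-identical genes summed was 4.141 and the effective number of Igkv genes as an inverse Simpson index was -0.432. With 1 library left out, the ranges there were -0.9091 to 0.3718 for all V genes, -1.059 to 0.2525 for Ighv, -0.8536 to 0.4078 for Igkv and -0.2158 to 0.9699 for Iglv levels, -0.7159 to 4.195 for the effective number of Ighv genes, and -1.092 to 0.6307 and -3.943 to 0.9613 for the largest and 10 largest Ighv shares. The same ranges were -0.02746 to 0.455 for the Ighv level between control CD4 and control CD8 libraries, -0.3631 to 0.544 for the largest Igkv share in CD4 cells, -0.4706 to 0.4373 for the lambda share in CD8 cells, -0.5991 to 0.06243 for Iglv3 in CD4 cells and -0.6278 to 1.713 for Ighv1-81 in CD8 cells. Thinning of the largest and 10 largest shares was planned and not run.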
